A study of Mus musculus with 12 samples.

Results

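Foxb1, Lmx1a, Lmx1b, Barhl1, Foxa1 and Sim2 are transcription factor genes listed here as markers of the mammillary and supramammillary region, the most posterior part of the hypothalamus. They were taken by symbol from the deposited expression table, and all 6 were found among its 32494 genes. The table covers RNA sequencing of the hypothalamus of 12 male mice. Every mouse carried floxed Smc3 and had received tamoxifen, and tissue was taken 5 weeks later. The labels also give an age of 8 weeks, without the step it refers to. Mice without the recombinase transgene (genotype floxed Smc3 and Camk2a-cre/ERT2-) were labelled WT (n = 7), and mice with Camk2a-cre/ERT2+ were labelled cKO (n = 5). The Camk2a promoter is used to drive the tamoxifen-activated recombinase mainly in forebrain excitatory neurons, and where it acted in these tissues was not measured. Below, a mouse is called by its label and its title's number.

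The mammillary bodies are paired nuclei at the floor of the posterior hypothalamus that project to the anterior thalamus and belong to the memory circuit of the hippocampus. The supramammillary nucleus lies above them, projects to the hippocampus and takes part in arousal and theta rhythm. Behind it lies the ventral tegmental area of the midbrain with its dopamine neurons. Foxb1 is a forkhead factor of mammillary neurons, needed for the mammillothalamic tract. Lmx1a and Lmx1b are LIM-homeodomain factors, Barhl1 is a homeobox factor and Foxa1 is a forkhead factor. These 4 genes mark supramammillary and subthalamic neurons, and all of them except Barhl1 are also known from midbrain dopamine neurons. Sim2 is a basic helix-loop-helix PAS factor that takes part with Sim1 in the development of the mammillary body axons.

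In GENCODE M21 (GRCm38), used here because no build is given in the sources used here, the 6 genes lie on 5 chromosomes. Foxb1 is on chromosome 9 (69757710 to 69760940, minus strand) and Lmx1a on chromosome 1 (167689237 to 167848741, plus strand). Lmx1b (33560965 to 33640511) and Barhl1 (28907679 to 28916668) are both on the minus strand of chromosome 2. Foxa1 is on chromosome 12 (57540628 to 57546916, minus strand) and Sim2 on chromosome 16 (94084931 to 94127032, plus strand). The antisense gene B230323A14Rik overlaps Foxb1 on the opposite strand. Its listed level was 2.21 to 9.38 CPM, and since the library kit named in the labels does not mark strand, reads of these partners cannot be told apart where they overlap.

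The promoters of Lmx1a, Lmx1b, Barhl1 and Foxa1 are shown because these 4 genes moved together across mice, as described further on. Each sequence holds the 250 bases before a RefSeq gene start (GRCm38.p6), 5′ to 3′ on the gene's strand, and 4 of the 6 members matched. The windows are chr1:167689308-167689557 on the plus strand for Lmx1a, and on the minus strand chr2:33641099-33641348 for Lmx1b, chr2:28916669-28916918 for Barhl1 and chr12:57546112-57546361 for Foxa1. RefSeq lists a second Barhl1 start (window chr2:28912496-28912745, GC content 56.8%), and the window shown is the one that borders the GENCODE gene. By the GENCODE coordinates above, the Lmx1a and Foxa1 windows lie inside the annotated genes. The Lmx1b window lies outside its gene on the promoter side but does not border it. Capitals mark matches on either strand to CCAAT (the CCAAT box), TGTTTAC (a forkhead core, found here as its reverse complement), TAATTA (a homeodomain core) or TATAAA (the TATA box).
Lmx1a: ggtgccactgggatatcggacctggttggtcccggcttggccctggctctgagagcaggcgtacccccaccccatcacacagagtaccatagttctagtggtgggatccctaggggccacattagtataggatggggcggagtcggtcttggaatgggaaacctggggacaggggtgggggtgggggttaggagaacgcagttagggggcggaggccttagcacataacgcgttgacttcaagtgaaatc
Lmx1b: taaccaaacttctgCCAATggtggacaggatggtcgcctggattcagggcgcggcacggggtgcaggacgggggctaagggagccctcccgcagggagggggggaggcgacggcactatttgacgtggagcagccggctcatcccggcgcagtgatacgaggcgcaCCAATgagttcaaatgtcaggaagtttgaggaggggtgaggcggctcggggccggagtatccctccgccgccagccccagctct
Barhl1: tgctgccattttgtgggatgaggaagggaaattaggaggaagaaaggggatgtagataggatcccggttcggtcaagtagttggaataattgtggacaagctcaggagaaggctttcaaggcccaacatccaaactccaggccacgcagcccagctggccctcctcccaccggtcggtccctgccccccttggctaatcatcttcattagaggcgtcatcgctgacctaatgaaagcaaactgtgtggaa
Foxa1: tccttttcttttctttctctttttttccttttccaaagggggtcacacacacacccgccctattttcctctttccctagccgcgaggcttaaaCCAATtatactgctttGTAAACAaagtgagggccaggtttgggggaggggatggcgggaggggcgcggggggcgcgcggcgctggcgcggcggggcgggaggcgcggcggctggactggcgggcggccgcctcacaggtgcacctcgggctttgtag

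CCAAT began at -236 and -84 in the Lmx1b window and at -157 in the Foxa1 window, counted from the base before the start as -1. In comparison, 33.8% of all 32851 RefSeq promoter windows of this length hold it. TGTTTAC was found once, at -141 of Foxa1, and 3.17% of all windows hold it. TAATTA (4.84% of all windows) and TATAAA (12.4%) had no match in the 4 windows. GC content was 59.2% for Lmx1a, 65.2% for Lmx1b, 52.8% for Barhl1 and 62.0% for Foxa1, against a median of 52.4% over all windows. These matches are descriptions of letters and not of bound sites. The Lmx1b window also holds the start of C130021I20Rik (chromosome 2, from 33641193, plus strand), a noncoding gene read in the opposite direction.

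Depth was 17126005 to 24010001 recovered reads in 11 libraries and 68744112 in WT 1. Values are in CPM, a gene's reads relative to the size of its library as scaled by the authors. The floor used for a gene without reads, 3 reads, corresponds to 0.0436 to 0.178 CPM and covers counting error only. Smc3, the floxed gene, went against the labels: it was at 76.8 to 85.7 CPM under the label WT and at 116 to 144 CPM under the label cKO (limma log2 fold change 0.67, SE 0.05, adjusted p-value 3.06e-05). Whether these gene-level reads include the floxed exons is not given in the sources used here, and every title, in either group, also holds the word control. Every direction below therefore refers to the libraries labelled cKO. The tissue also differed between mice in markers of neighbouring regions. The hypothalamic peptide gene Oxt was between 0.280 and 2.33 CPM in WT 4, WT 5, cKO 12 and cKO 13 and between 69.5 and 348 CPM in the other 8 libraries. The midbrain genes are given beside the members. Libraries WT 11 and cKO 8 had the lowest levels of 4 of the 6 members, near 0, so group results are also given without them.

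Lmx1a ranged from no reads in 1 mouse to 24.3 CPM in another. It was at 0 CPM in WT 11 (0 reads, which allows up to 0.124 CPM), had a WT median of 10.8 CPM and reached 19.3 CPM in WT 4. In those labelled cKO it was at 0.252 CPM in cKO 8, 3.87 in cKO 9, 4.50 in cKO 14, 17.3 in cKO 13 and 24.3 in cKO 12. In bulk tissue fewer cells of a type and less RNA per cell cannot be told apart. One library of each group was near 0, and the groups overlapped over nearly their whole range. The highest library was at least 196-fold above the lowest, with the 3-read level of WT 11 as the base.

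Lmx1b, the close relative of Lmx1a, followed nearly the same order of mice. In the libraries labelled WT it ran from 0.124 CPM (3 reads) in WT 11 through a median of 8.27 to 16.1 CPM in WT 4. In those labelled cKO it was at 0.545 CPM in cKO 8, 3.92 in cKO 9, 4.68 in cKO 14, 13.2 in cKO 13 and 20.1 in cKO 12. Again WT 11 and cKO 8 were lowest and cKO 12 was highest, and the groups overlapped. In the 10 libraries other than WT 11 and cKO 8, each with at least 76 reads of both genes, the ratio of Lmx1b to Lmx1a CPM was 0.857 ± 0.116 (SD, n = 10), from 0.715 to 1.04. Over those libraries Lmx1a itself ran from 3.87 to 24.3 CPM.

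Barhl1 ran from 0.330 CPM in WT 11 through a median of 6.67 to 10.01 CPM in WT 4 in the libraries labelled WT. It was at 0.294 CPM in cKO 8, 3.14 in cKO 9, 3.37 in cKO 14, 7.41 in cKO 13 and 12.2 in cKO 12. The lowest 2 and the highest library were the same as for Lmx1b. Foxa1 was at 0.248 CPM in WT 11, had a WT median of 6.36 and reached 16.5 CPM in WT 5. In the libraries labelled cKO it was at 0.126 CPM (3 reads) in cKO 8, 2.11 in cKO 9, 2.31 in cKO 14, 13.01 in cKO 13 and 18.0 in cKO 12. Foxa1 differed from the other 3 in that WT 5, and not WT 4, was highest among the libraries labelled WT.

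Foxb1, the mammillary body gene, did not fall to 0 in any library. Its lowest WT value was 6.62 CPM in WT 7, the median was 11.9 and the highest was 17.8 in WT 1. In those labelled cKO it was at 5.87 CPM in cKO 8, 8.14 in cKO 9, 8.88 in cKO 14, 22.3 in cKO 13 and 25.3 in cKO 12. The libraries in which the LIM-homeodomain genes were almost undetected thus still held 7.35 CPM (WT 11, 178 reads) and 5.87 CPM (cKO 8, 140 reads) of Foxb1. The 2 highest libraries were both labelled cKO, and the other 3 of that group lay within or below the WT range.

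Sim2 was low and varied least of the 6. It ran from 1.47 CPM in WT 7 through a median of 2.28 to 2.64 CPM in WT 11, and was at 2.01 CPM in cKO 9, 2.04 in cKO 13, 2.31 in cKO 14, 2.75 in cKO 12 and 3.23 in cKO 8. These values rested on 34 to 169 reads per library. WT 11 and cKO 8, lowest for 4 other members, had the highest Sim2 of their groups. In WT the lead was slight, with WT 15 at 2.62 CPM (59 reads) next to WT 11 (64 reads).

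**Figure D1:**
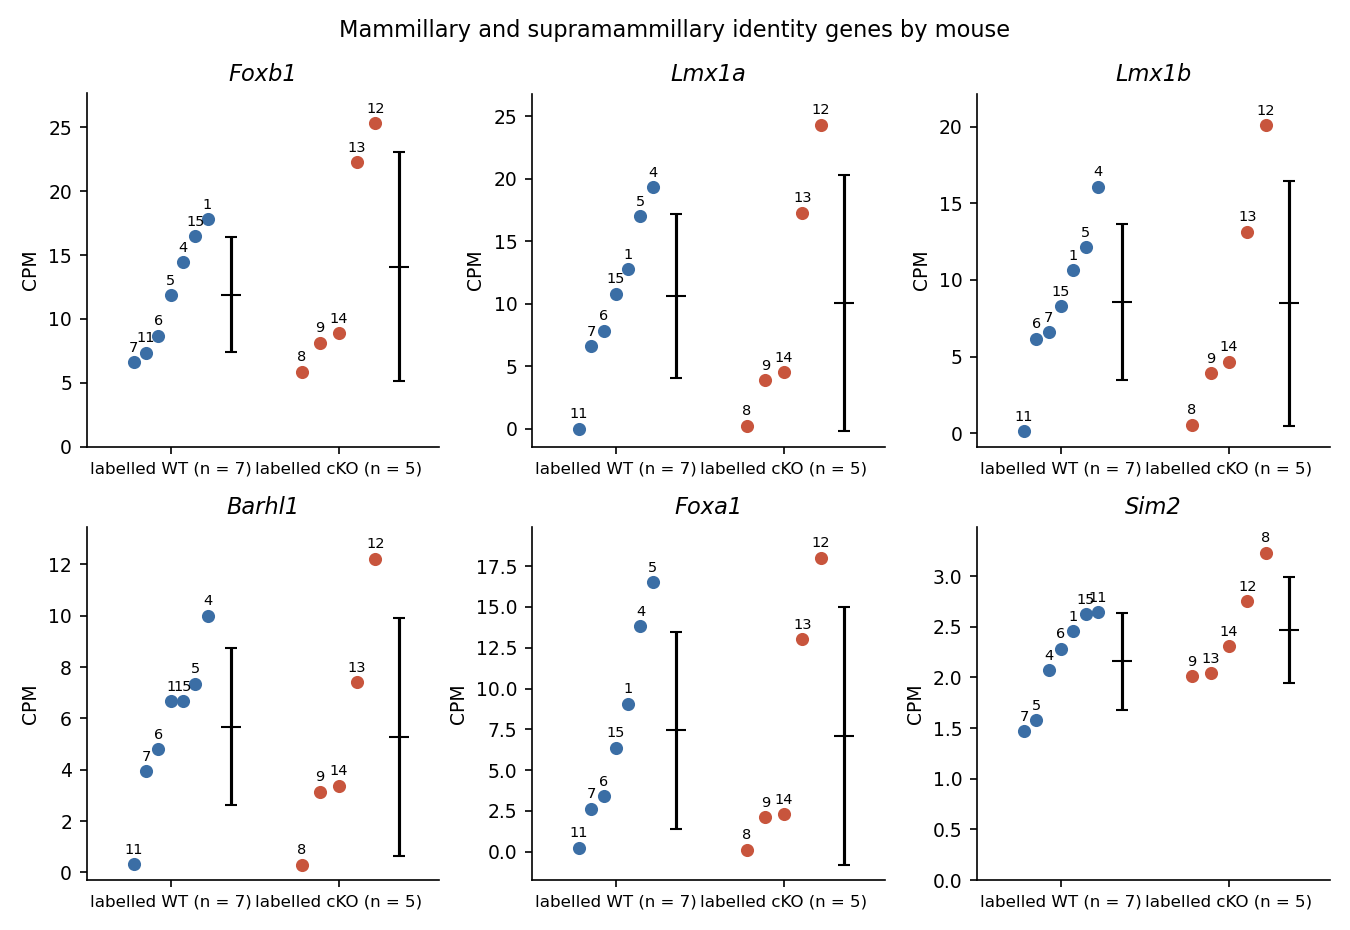
CPM (vertical axis) of the 6 genes in each library labelled WT (blue, n = 7) and cKO (red, n = 5), with the mouse number above each point, points of a group sorted by level from left to right, and the mean ± SD as a black bar. WT 11 and cKO 8 are near 0 for Lmx1a, Lmx1b, Barhl1 and Foxa1, and the groups overlap in all 6 genes.

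Levels of different genes were compared per length, as CPM per kilobase of annotated exon. Mean levels over the 12 libraries were 4.29 ± 2.16 (SD) for Foxb1, 3.06 ± 2.31 for Lmx1a, 2.19 ± 1.96 for Foxa1, 1.75 ± 1.25 for Lmx1b, 1.41 ± 0.921 for Barhl1 and 0.542 ± 0.118 for Sim2. No step between neighbours in this order was larger than the SD of the higher gene. Within libraries the order was steadier. Foxb1 was above Lmx1b, Barhl1 and Sim2 in 12 of 12 libraries and above Lmx1a in 10. Lmx1a was above Lmx1b in 10 of 12, while Lmx1b was above Foxa1 in only 5 of 12.

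Variation between mice of the same label was large for 5 of the 6 genes. The within-group SD of log2(CPM + 1) was 1.58 for Lmx1a, 1.48 for Foxa1, 1.37 for Lmx1b and 1.12 for Barhl1, against a median of 0.12 over the 15359 genes that averaged 1 CPM or more. Only 11 of those genes had a larger SD than Lmx1a and 25 a larger one than Barhl1. Foxb1 had an SD of 0.68, exceeded by 107 genes. Sim2, at 0.22, was exceeded by 2366 genes (15.4%).

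Whether these genes differed between the libraries labelled cKO and WT was asked in a limma fit over all 15359 tested genes, on log2(CPM + 1). All 6 members passed the CPM minimum, and 0 of 6 had an adjusted p-value under 0.05, where 14.1% of all tested genes did (1004 higher and 1168 lower, but 1377 higher and 1054 lower after median centring). At an unadjusted p-value under 0.05 the count was also 0 of 6, against 31.1% of all tested genes. On recovered reads edgeR's quasi-likelihood test and DESeq2 also placed 0 members past an adjusted 0.05. Of the 15359 tested genes, edgeR called 2098 and DESeq2 2747. The group ranges overlapped for all 6, while they did not for 6.73% of all tested genes.

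Lmx1a was at 10.6 ± 6.55 CPM (SD, n = 7) and 10.04 ± 10.3 CPM (SD, n = 5). The log2 fold change was -0.35 with a 95% interval of -2.04 to 1.35 (limma adjusted p-value 0.804). Foxb1 was at 11.9 ± 4.50 and 14.1 ± 8.99 CPM, a log2 fold change of 0.10 (-0.64 to 0.83, limma adjusted p-value 0.876). For Lmx1b, Barhl1 and Foxa1 the log2 fold changes were -0.20, -0.25 and -0.33, and the widest of their intervals was that of Foxa1, -1.92 to 1.26. Sim2 had the narrowest interval, at 0.14 (-0.13 to 0.40, limma adjusted p-value 0.487). As ratios of CPM + 1, the intervals ran from 0.243 to 2.54 for Lmx1a and from 0.914 to 1.32 for Sim2. With a pseudocount of 0.1 the log2 intervals were wider, at -3.02 to 2.47 for Lmx1a and -0.18 to 0.57 for Sim2. Two-sided exact permutation tests of mean CPM over all 792 splits gave p-values from 0.311 (Sim2) to 0.984 (Lmx1b), unadjusted, for the 6 members.

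Without WT 11 and cKO 8 the limma log2 fold changes were -0.26 (SE 0.45) for Lmx1a, -0.13 (SE 0.39) for Lmx1b, -0.13 (SE 0.31) for Barhl1, -0.18 (SE 0.58) for Foxa1, 0.24 (SE 0.34) for Foxb1 and 0.10 (SE 0.13) for Sim2. Adjusted p-values were then at least 0.658, with 7.11% of all genes called. Leaving out cKO 8 alone turned the sign of Lmx1a (to 0.27), Lmx1b (0.33), Barhl1 (0.22) and Foxa1 (0.20). The authors' deposited table also had 0 of 6 members under an FDR of 0.05, with 4.94% of its 32494 genes under it. Its log2 fold changes for the members ran from -0.10 (Barhl1) to 0.24 (Foxb1).

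Lmx1a, Lmx1b, Barhl1 and Foxa1 rose and fell together across the mice, whatever the label. Over the 12 libraries the 6 pairs among these 4 genes had a Pearson r of log2(CPM + 1) from 0.953 to 0.997 and a Spearman's rho from 0.965 to 0.993. The adjusted permutation p-value was 2.50e-05 for each r, from the smallest p that 100000 permutations can give, and at most 5.00e-05 for rho, over 15 pairs of members. Leaving out the 2 libraries farthest from the median, WT 11 and cKO 8 in each case, gave r from 0.943 to 0.988. Within the 7 libraries labelled WT r was 0.929 to 0.996, and no r is given over the 5 libraries labelled cKO, which all 4 genes ranked in the same order (cKO 8, 9, 14, 13 and 12). The points share their libraries and depth.

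Foxb1 ranked the 5 libraries labelled cKO in that order too. Its r with the 4 genes was lower, at 0.781 to 0.856 (adjusted permutation p-values 0.00161 to 0.00270) and its rho 0.832 to 0.860, with 0.728 to 0.818 for r after leaving out cKO 12 and cKO 13, the farthest from its median. Within the libraries labelled WT r was 0.620 to 0.732. Sim2 did not pass the test with any of the other 5 (r from -0.41 to 0.08, adjusted permutation p-values at least 0.234). The sign of r changed with the libraries left out. For Sim2 with Lmx1a, Lmx1b, Barhl1 and Foxa1, r was -0.41 to -0.35 over the 12 libraries. It was 0.152 to 0.335 without WT 11 and cKO 8, the libraries farthest from the medians of those 4 genes. For Sim2 with Foxb1, r was 0.08 over the 12, -0.03 without cKO 12 and cKO 13 and 0.580 without WT 11 and cKO 8.

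**Figure D2:**
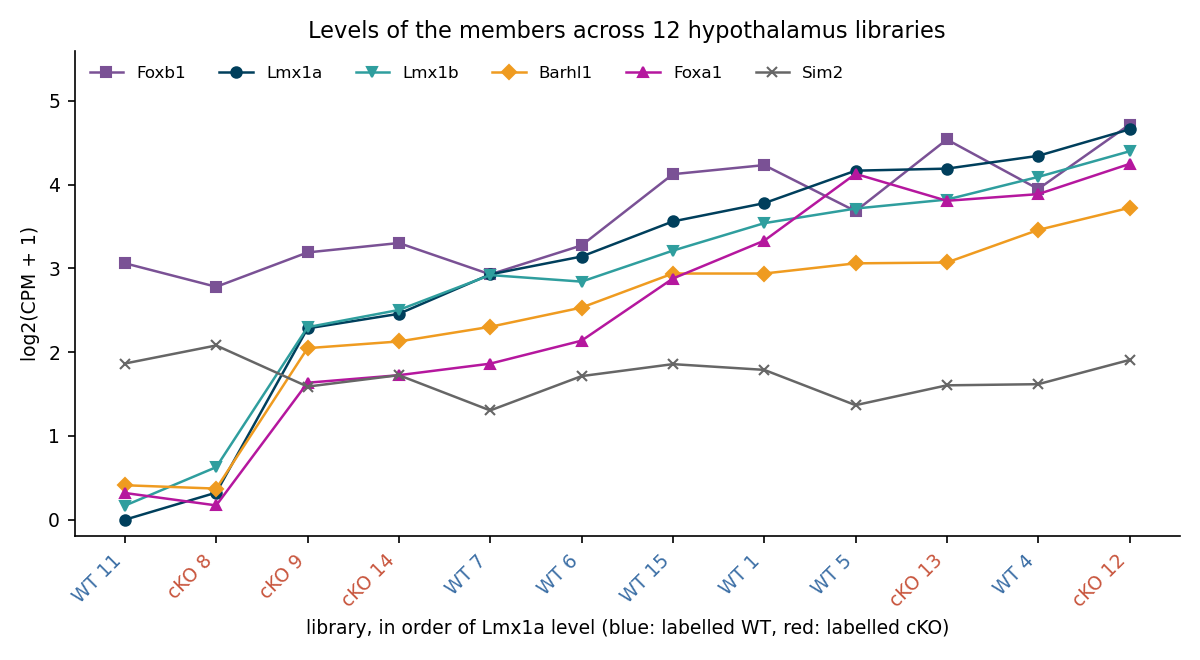
log2(CPM + 1) of the 6 genes (vertical axis) in the 12 libraries, placed from left to right by their Lmx1a level, with library names in blue (labelled WT) or red (labelled cKO). Lmx1a, Lmx1b, Barhl1 and Foxa1 climb together from WT 11 to cKO 12, Foxb1 climbs less, Sim2 changes least, and both labels occur at the low and the high end.

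The ratio of Foxa1 to Lmx1a was less even than that of Lmx1b. Among the 10 libraries other than WT 11 and cKO 8, it was 0.712 to 0.973 in WT 1, WT 4, WT 5, cKO 12 and cKO 13 and 0.399 to 0.588 in the other 5. The first 5 are the libraries with Slc6a3, the dopamine transporter gene, above 50 CPM. The ratio of Barhl1 to Lmx1a went the other way, at 0.429 to 0.524 in those 5 libraries and 0.595 to 0.810 in the others. Both splits held libraries of each label, and the division was made after the values were seen and was not tested.

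Midbrain dopamine markers varied between the mice too. Nr4a2, a nuclear receptor of dopamine neurons that other neurons also make, was graded, from 6.36 CPM in WT 11 and 9.27 CPM in cKO 8 to 65.4 CPM in cKO 12. Slc6a3 and En1 instead fell into separate ranges. Slc6a3 was at 52.6 to 132 CPM in WT 1, WT 4, WT 5, cKO 12 and cKO 13 and at 0.826 to 1.78 CPM in the other 7. En1, a midbrain identity gene, was at 4.51 to 9.09 CPM in the 5 and at 0 to 0.248 CPM in the 7. Lmx1a was at 12.7 to 24.3 CPM in the 5 and reached 10.8 CPM (WT 15) among the 7. These 2 ranges of Lmx1a did not overlap. Among the 7, Lmx1a was at 10.8 CPM in WT 15, 7.83 in WT 6, 6.62 in WT 7 and 4.50 in cKO 14. It was at 3.87 CPM in cKO 9, 0.252 in cKO 8 and 0 in WT 11. The summed level of the 9 midbrain markers was 102 to 663 CPM in the libraries labelled WT and 162 to 510 CPM in those labelled cKO, and 0 of the 8 tested were past the limma threshold that 14.1% of all tested genes passed. Averaging log2(CPM + 1) over the list gave each library a midbrain score. In a fit with this score as a term, added once the data had been seen, the log2 fold change was -0.13 for Lmx1a and -0.01 for Lmx1b, and 0 of 6 members were past the threshold, with 20.7% of all genes called. With the thalamus score as the term instead, the log2 fold changes were further from 0, at -1.61 (SE 0.94) for Lmx1a, -1.25 (SE 0.83) for Lmx1b, -1.16 (SE 0.67) for Barhl1 and -1.44 (SE 0.90) for Foxa1. Again 0 of 6 members were past the threshold, which only 628 of the 15359 tested genes passed in that fit. The thalamus score itself was 6.06 to 7.14 in the libraries labelled WT and 5.39 to 6.31 in those labelled cKO. That fit therefore cannot fully separate the score from the label. Serotonergic neurons also make Lmx1b, and their 3 markers summed to 0.413 to 1.48 CPM over the libraries. Cerebellar granule neurons also make Barhl1, and their 4 markers summed to 4.32 to 7.31 CPM. Of these, Neurod1 was at 3.73 to 6.36 CPM, Cbln3 at 0.280 to 0.940 CPM, Fat2 at 0 to 0.178 CPM and Gabra6 at 0 to 0.0433 CPM. The part of either cell type in the members' levels was not tested.

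Of the 9 tested anterior and tuberal factors, 1 had a group-centred r with Lmx1a below -0.7 (Six3, -0.80; 5.45% of all tested genes) and 1 above 0.7 (Tbx3, 0.765; 8.83%). With Foxa1 the counts were 4 below -0.7 (6.76% of all tested genes) and 1 above 0.7 (10.6%). Hcrt, the orexin gene of the lateral hypothalamus, had a group-centred r of 0.624 with Lmx1a. Six3, a factor of the anterior hypothalamus, was at 9.14 CPM in cKO 12 and 55.3 CPM in cKO 8. Oxt, the oxytocin gene of the paraventricular and supraoptic nuclei, was at 0.280 CPM in cKO 12 and 348 CPM in WT 11. The 4 libraries with Oxt under 3 CPM (WT 4, WT 5, cKO 12 and cKO 13) were the 4 with the highest Lmx1a. The part of these midbrain and anterior markers in the members' levels was not tested.

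**Figure D3:**
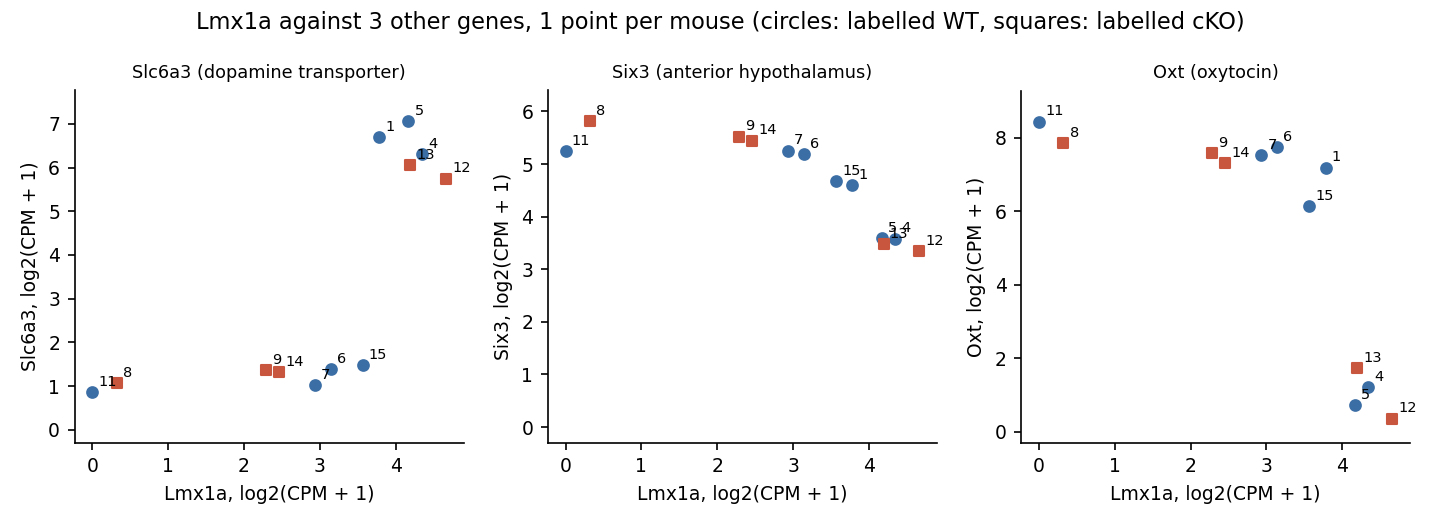
Lmx1a (horizontal axes) against Slc6a3, Six3 and Oxt (vertical axes), all as log2(CPM + 1), 1 point per mouse with its number, blue circles for labelled WT and red squares for labelled cKO. Slc6a3 is high in 5 libraries only, Six3 falls along the range, and Oxt drops in the 4 libraries with the most Lmx1a.

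The genes most like each member were sought among the other 15353 tested genes by Pearson r of log2(CPM + 1) with the group means subtracted, over 12 libraries. For Lmx1a, Lmx1b and Barhl1 C130021I20Rik and Mme were each among the leading 3. C130021I20Rik, the noncoding neighbour of Lmx1b, had r of 0.991 with Lmx1b and 0.995 with Lmx1a, and ran from 0.372 to 39.6 CPM. It starts 681 bases from the annotated end of Lmx1b at the promoter side. Mme, the membrane peptidase neprilysin, had r of 0.989 with Lmx1a over a smaller range, 7.35 to 22.9 CPM. Without WT 11 and cKO 8 these r values with Lmx1a were 0.980 and 0.972.

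The leading genes for Foxa1 were Ttc6 (r 0.990), Adcyap1 (0.987) and Neurod6 (0.984). Ttc6 lies 17196 bases from Foxa1 on the opposite strand and ran from 0.0420 CPM (cKO 8) to 4.65 CPM (WT 5). Adcyap1, which encodes the neuropeptide PACAP, was at 26.8 CPM in cKO 8 and 114 CPM in WT 5. Foxb1 had other leading genes, Pthlh (0.956), Sfta3-ps (0.949) and Kcnj2 (0.943). Pthlh, which encodes a parathyroid hormone-like peptide, was at 0.378 CPM in cKO 8 and 6.75 CPM in WT 4. Sim2 was less closely matched, with Tnni3 (0.922), LOC118568695 (0.919) and Dcx (0.917) first. Of the other genes, 54 had r above 0.95 with Foxa1, 32 with Lmx1a, 25 with Lmx1b, 24 with Barhl1, 1 with Foxb1 and 0 with Sim2.

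Other transcription factors of the mammillary, premammillary, supramammillary and subthalamic regions were described through a list of 14. The list was chosen with earlier results of these data known. For Lmx1a, 9 of the 14 had a group-centred r above 0.7, where 8.83% of all tested genes did. Among them were Irx3 (0.975), Irx5 (0.952), Lhx1 (0.944), Nkx2-4 (0.909), Emx2 (0.900), Barhl2 (0.886), Foxa2 (0.875) and Uncx (0.820). Otp, which is also a factor of the paraventricular nucleus, had r of -0.72 with Lmx1a. High r was not particular to this list. The 8 tested midbrain dopamine markers had r with Lmx1a from 0.667 (En1) to 0.947 (Nr4a2). Their r with Foxa1 ran from 0.797 (Th) to 0.981 (Nr4a2). For Sim2, 0 of the 14 were above 0.7, where 2.98% of all tested genes were. Its median r was -0.22 with these 14 and 0.30 with the 9 tested anterior and tuberal factors, of which 0 were above 0.7. Of the 14, Foxb1 had 9 above 0.7 (5.31% of all tested genes) and 2 below -0.7 (2.80%), Otp and Sim1. Barhl2 (0.934) was first, and Nkx2-1, the factor of the basal hypothalamus, was at 0.876. The r of Nkx2-1 with Lmx1a was 0.593.

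Between the groups, the 14 factors showed 1 higher and 0 lower by limma, with a median log2 fold change of 0.17 against 0.01 over all tested genes. Of all tested genes 6.54% were higher and 7.60% lower. The gene was Sim1, a factor of paraventricular as well as mammillary neurons (log2 fold change 0.56, SE 0.14, limma adjusted p-value 0.0206), which was at 15.4 to 27.1 CPM in the libraries labelled cKO and 10.9 to 18.6 CPM in those labelled WT. The call was lost without cKO 9 (limma adjusted p-value 0.0518) or cKO 14 (0.05004). The group-centred r of Sim1 with Lmx1a was -0.60.

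Transmitter, peptide, calcium-binding and signalling genes of these neurons made up a list of 8, also chosen with earlier results known. Wnt8b was under the CPM minimum and 7 were tested. By limma 3 of the 7 were lower (7.60% of all tested genes) and 0 higher (6.54%), with a median log2 fold change of -0.32. Cck, the cholecystokinin gene, fell by 1.08 on the log2 scale (SE 0.21, limma adjusted p-value 0.00798), from 52.5 to 115 CPM in the libraries labelled WT to 24.6 to 51.5 CPM in those labelled cKO, with no overlap. Tac1, which encodes substance P, fell by 0.63 (SE 0.14, limma adjusted p-value 0.0146), and Calb1, which encodes calbindin, fell by 0.55 (SE 0.16, limma adjusted p-value 0.0364). These 3 genes are also made in the thalamus or other hypothalamic nuclei. Calb1 lost its call when WT 1, 6, 7, 11 or 15 or cKO 8, 12 or 13 was left out (limma adjusted p-values up to 0.0860). The group-centred r with Lmx1a was -0.59 for Cck, 0.815 for Tac1 and -0.75 for Calb1. The summed level of the thalamus markers was 654 to 1270 CPM in the libraries labelled WT and 435 to 746 CPM in those labelled cKO, with overlap. Of these markers, Prkcd, Rora and Ntng1 were lower by limma (adjusted p-values 0.0177, 0.00970 and 0.0287), where 7.60% of all tested genes were. Lef1 (0.0504), Gbx2 (0.232), Tcf7l2 (0.376) and Synpo2 (0.668) were not past the threshold. The part of the thalamus markers was examined only by adding their score to the fit. Because most of that score's range differed with the label, the fit cannot fully separate the score from the label. Then Cck (-0.45) and Tac1 (-0.84) were past the threshold, while Sim1 (0.55, adjusted p-value 0.110) and Calb1 (-0.25, adjusted p-value 0.424) were not. Without WT 11 and cKO 8, Cck (-0.97) and Tac1 (-0.59) were past it, and Sim1 (adjusted p-value 0.0696) and Calb1 (adjusted p-value 0.0859) were not.

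For contrast in position, 10 anterior and tuberal hypothalamic factors were listed, again with earlier results of these data known. Rax was under the CPM minimum, leaving 9 for the test. By limma 0 of the 9 were past the adjusted threshold (14.1% of all tested genes) and 1 had an unadjusted p-value under 0.05 (31.1% of all tested genes). That gene was Hmx3 (log2 fold change 0.86, SE 0.33, adjusted p-value 0.0958). edgeR's quasi-likelihood test and DESeq2 also placed 0 of the 9 past the adjusted threshold, where they placed 2098 and 2747 of the 15359 tested genes. The median r of these 9 genes with Lmx1a was -0.52, against 0.88 for the 14 posterior factors. For the 8 tested midbrain dopamine markers r with Lmx1a was 0.667 to 0.947.

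**Figure D4:**
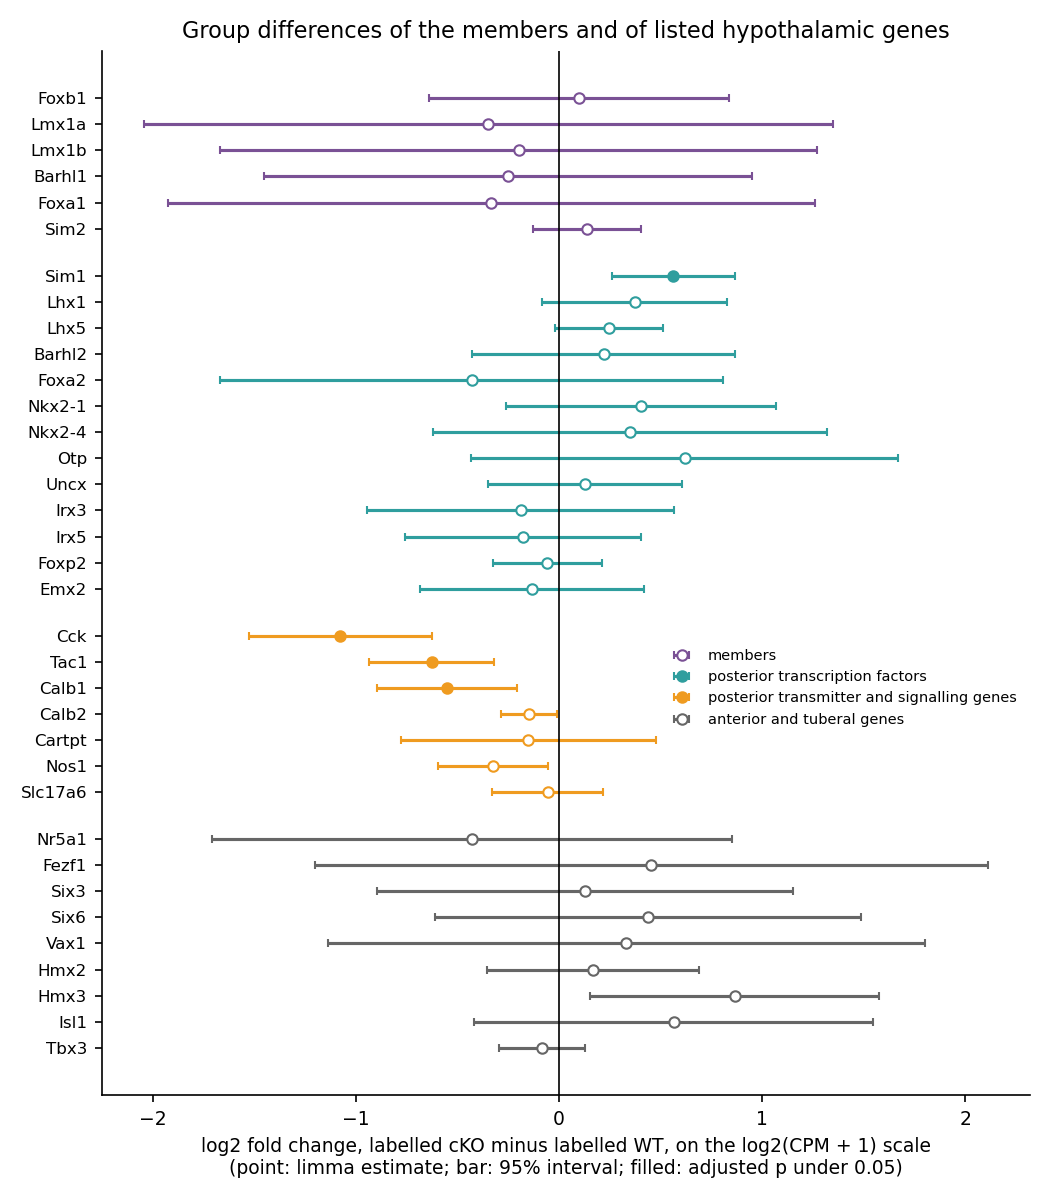
limma log2 fold changes on the log2(CPM + 1) scale (horizontal axis, labelled cKO minus labelled WT) with 95% intervals, for the 6 members and for tested genes of the posterior and the anterior and tuberal lists (rows), filled where the adjusted p-value was under 0.05. The intervals of all 6 members cross 0, and Sim1, Cck, Tac1 and Calb1 are the filled points.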

How the data were processed

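Per the labels' protocols, RNA came from a Qiagen column, mRNA was selected, and an NEBNext Ultra II kit was used for the libraries. The submitters' processing notes name bcl2fastq, FastQC 0.11.9, STAR 2.7.9a, SAMtools, Subread and featureCounts, without their roles. The genome build and annotation are not given in the sources used here. The authors deposited normalized CPM for 32494 genes and 12 libraries. Their deposited test table holds log2 fold changes, log2 mean CPM, p-values and false discovery rates. All 12 columns were matched to samples by name, and 0 were left unused.

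Each deposited CPM column was whole multiples of 1 step for 100% of values (relative tolerance 1e-06), which gave whole reads. Over 31 pairs of libraries within a group, the chi-square per degree of freedom was 3.04 to 26.3 for genes with at least 20 reads, so each library was counted separately. The labels do not say more of how the mice were kept apart than their numbers.

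The main test was limma 3.58.1 (R 4.3.3), fitted on log2(CPM + 1) with group as the sole term and a trended prior, over genes averaging 1 CPM or more, with Benjamini-Hochberg adjustment and a threshold of 0.05. This scale understates changes of low genes. Alternatives were quantile normalization, median centring, a 0.1 pseudocount, all genes above 0, a minimum of 5 CPM, no trend, arrayWeights, a thalamus score, a GC and length correction (14515 tested genes matched, 94.5%; splines with 4 degrees of freedom), edgeR 4.0.16, DESeq2 1.42.0 and leaving out each mouse. A midbrain score and leaving out WT 11 with cKO 8 were added after seeing the data. On simulated data for this comparison (15327 genes tested, true changes of 1 log2 unit), limma recovered 174 of 197 changed genes (88.3%) and made 7 false calls. The changed genes were drawn at random from all genes averaging 1 CPM or more, whose median within-group SD was 0.12. This recovery therefore cannot be carried over to genes as variable as Lmx1a (SD 1.58). On the real data edgeR called 2098 genes from the recovered reads and limma 2172.

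The members and lists were chosen with earlier results of these data known. Genes were named by rule: the members, Smc3, listed genes past the threshold, and the 3 genes most like each member. Slc6a3, En1, Six3, Oxt, Gabra6 and the other genes named with values were chosen after these were seen. Habenula markers summed to 17.6 to 31.7 CPM over all libraries, choroid plexus markers to 24.3 to 41.2 CPM and cerebellar granule markers to 4.32 to 7.31 CPM. The values of 1 listed gene are not reported here.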

Additional observations from a re-analysis of the deposited data

Results flagged for a closer look

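Single libraries lay far from their group in 2 of 36 sets of values, and chance alone gives about 1.8. WT 1 had 68.7 megareads, with 24.0 megareads in the next library labelled WT. The score of the posterior transcription factor list was 2.42 in WT 11, the lowest of the libraries labelled WT, with 3.18 in the next. By the same measure on CPM, no library was far enough from the next for any of the 6 members, WT 11 and cKO 8 included.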

How the results depend on the processing

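No paired analysis was possible because the groups share 0 mouse numbers. The 6 members were not past the adjusted threshold in any of the settings run. Lmx1a, Lmx1b, Barhl1 and Foxa1 kept a negative log2 fold change under 13 settings other than leaving out 1 mouse, from -1.61 to -0.09 for Lmx1a, -1.25 to -0.01 for Lmx1b, -1.16 to -0.11 for Barhl1 and -1.44 to -0.07 for Foxa1. With arrayWeights they were -1.08, -0.85, -0.69 and -1.14. Foxb1 turned to -0.57 with arrayWeights and -0.50 with the thalamus score, and Sim2 to -0.014 and -0.011. The minimum of 5 CPM left no value for Sim2. Leaving out 1 mouse gave -0.87 to 0.27 for Lmx1a, -0.66 to 0.33 for Lmx1b, -0.62 to 0.22 for Barhl1, -0.81 to 0.20 for Foxa1, -0.15 to 0.33 for Foxb1 and 0.06 to 0.18 for Sim2. The difference of mean CPM then ran from -4.14 to 1.88 for Lmx1a, -3.00 to 1.89 for Lmx1b, -2.13 to 0.855 for Barhl1, -3.05 to 1.42 for Foxa1 and -0.60 to 4.26 for Foxb1, with exact permutation p-values of at least 0.203 over the 6 genes.

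Over all genes, 5126 were past the threshold with arrayWeights (2405 higher), 628 with the thalamus score (202 higher), 1090 without WT 11 and cKO 8, and 1158 (without WT 1) to 2302 when 1 mouse was left out, against 2172. Median centring put 1377 of its calls higher and 1054 lower. The posterior list had 2 genes past it with the thalamus score, 2 without WT 11 and cKO 8, 3 with all genes above 0, 5 with the midbrain score and 6 with arrayWeights, against 4, and 3 to 4 when 1 mouse was left out. For the anterior and tuberal list the count was 0 to 1 when 1 mouse was left out, with 1 without WT 15. Cck and Tac1 stayed past it in all of these settings. Smc3 stayed between 0.64 and 0.74. What caused these differences was not tested. Low reads limit Lmx1a, Lmx1b, Barhl1 and Foxa1 in WT 11 and cKO 8, at 0 to 13 reads.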
